A study of Homo sapiens with 46 samples.

Results

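SAMD9 and its neighbouring paralogue SAMD9L, with the Schlafen genes SLFN5, SLFN11, SLFN12 and SLFN13, were followed through 46 RNA sequencing libraries of human cell lines that lose Ku, the ring-shaped dimer of Ku70 and Ku80 that binds DNA ends. The 6 genes were taken by symbol, and all 6 were found among the 61228 genes of the HCT116 tables and the 30160 genes of the HEK293 tables. HCT116 is a colon carcinoma line and HEK293 an embryonic kidney line. In HCT116, Ku80-AID clones carry Ku80 fused to an auxin-inducible degron and received 100 µM indole-3-acetic acid (IAA) together with 0.5 µg/mL doxycycline (dox), against DMSO, so the drugs and the loss of Ku80 came together. These clones gave 2 libraries a group for 1 day of IAA or DMSO (clones 1 and 9), 3 a group for 2, 4 and 6 days of IAA and 2 days of DMSO (clones 1, 7 and 9), and 2 or 3 a group for 2 or 4 days of a CDK4/6 inhibitor (CDKi) with or without IAA and dox. Ku80-AID, MAVS-/- clones 1, 13 and 15 also lack MAVS, through which cytosolic RNA sensors signal, and gave 3 libraries each after 4 days of IAA and dox or of DMSO. Ku86Flox/-:CreERT2 and Ku86Flox/- HCT116 cells hold 1 floxed allele of the Ku80 gene XRCC5, with or without tamoxifen-driven Cre recombinase, and gave 2 libraries a group after 4 days of 50 nM 4-hydroxytamoxifen (4OHT) or ethanol. HEK293 clones Sa11, SB and TI are Ku70-/- and live on dox-inducible ectopic Ku70, and were sampled 8 days after dox withdrawal and on 1 µg/ml dox.

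Both families belong to the interferon response. Viral or cellular double-stranded RNA is sensed and reported through MAVS to interferon genes, secreted interferon acts through receptor-bound kinases and transcription factors that bind response elements at the promoters of interferon-stimulated genes. SAMD9 and SAMD9L restrict poxviruses and repress translation, and SAMD9 can cleave a transfer RNA. Schlafen proteins are linked to RNA cleavage and growth arrest. SLFN5 represses viral and host transcription, SLFN11 blocks stressed replication forks and cleaves transfer RNAs after DNA damage, SLFN12 is a ribonuclease activated by binding PDE3A, and SLFN13 cleaves transfer and ribosomal RNAs.

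SAMD9 lies on the minus strand of chromosome 7 from 93099513 to 93118023 and SAMD9L on the same strand from 93130055 to 93148369 (GRCh38, GENCODE gene models), with 12031 bases between them. The Schlafen genes lie in a row on chromosome 17, SLFN5 from 35243036 to 35273655 on the plus strand, and on the minus strand SLFN11 from 35350305 to 35373701, SLFN12 from 35411060 to 35433283 and SLFN13 from 35435096 to 35448837. Of the 6 genes, 4 have a RefSeq promoter window, while SLFN5 and SLFN13 have none and were not searched. The windows of SAMD9 and SAMD9L are shown because these neighbours rose from very different starting levels. Each is the 250 bases before the RefSeq start, read 5′ to 3′ on the minus strand of GRCh38.p14, chr7:93117980-93118229 for SAMD9 and chr7:93148386-93148635 for SAMD9L. These starts differ from the ends of the GENCODE gene models above, and the SAMD9 window overlaps its gene model. Capitals mark GAAA, any 2 bases and GAAA (an interferon-stimulated response element core) in SAMD9, and in SAMD9L only the shorter AAANNGAAA.
SAMD9: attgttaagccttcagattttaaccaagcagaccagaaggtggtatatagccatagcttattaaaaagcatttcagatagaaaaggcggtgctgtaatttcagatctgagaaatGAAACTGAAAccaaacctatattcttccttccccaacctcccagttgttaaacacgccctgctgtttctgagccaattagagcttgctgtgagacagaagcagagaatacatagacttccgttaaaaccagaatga
SAMD9L: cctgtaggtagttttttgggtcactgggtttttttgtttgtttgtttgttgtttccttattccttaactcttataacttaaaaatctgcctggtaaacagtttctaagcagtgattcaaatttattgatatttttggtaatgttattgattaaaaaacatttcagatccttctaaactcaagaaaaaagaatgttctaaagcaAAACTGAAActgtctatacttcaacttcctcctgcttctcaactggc

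On both strands of the whole windows (250 bases before and 50 after the start), the core made of GAAA, any 2 bases and GAAA matched SAMD9 136 to 127 bases before the start and none of the other 3 members with a window. It is held by 3.57% of 35116 RefSeq windows. The shorter AAANNGAAA, which lies inside the first motif and was chosen after the sequences were seen, matched SAMD9, SAMD9L 47 to 39 bases before the start, and SLFN12, and is held by 10.5% of windows. The gamma-activated site TTCNNNGAA matched SLFN11 and is held by 7.66% of windows. These are matches of letters and not measured sites.

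Library totals ran from 9.53 to 45.7 M (mega) estimated counts in HCT116, while the HEK293 totals were 19.6 to 28.5 M. Levels are given as CPM (counts scaled to library size with TMM factors), and between genes as TPM (scaled also to length). Statements that groups did or did not overlap only describe the libraries. The share of all genes without overlap was not computed, and with 2 or 3 libraries a group separation can arise easily. The engineered genes followed the labels where RNA can show it: XRCC5 stood at 24.9 to 30.7 CPM in 4OHT-treated CreERT2 cells and 256 to 258 CPM in their ethanol controls, XRCC6 (Ku70) at 338 to 605 CPM without dox and 2267 to 3526 CPM with dox, and MAVS at 108 to 184 CPM in MAVS-/- clones and at least 261 CPM in degron clones with intact MAVS. The degron acts on protein, so its RNA is no check. HCT116 libraries carried the epithelial markers EPCAM (median 313 TPM) and KRT8 (1066 TPM), with VIL1 at 0 in 13 of 40. Of 7 markers of other cell types, PTPRC was at 0 in 35 of 40 libraries, CD3E in 38, COL1A2 in 35, PECAM1 in 29 and CD14 in 12, and COL1A1 was present in all 40 (4.58 to 24.5 TPM). Their sum was 45.6 to 93.7 TPM after 4 days of IAA and 15.1 to 18.5 TPM in the 2-day DMSO controls, most of it CD68 (37.3 to 79.6 against 1.91 to 5.55 TPM), and its part in the results was not tested. All 8 libraries of the 1-day groups and the 2-day CDKi groups stand apart: 17 genes, SLFN11 among them, had at least 50 counts in each and at most 2 counts in each of the other 32 HCT116 libraries. The 18 libraries of the 2-day DMSO, the 2-, 4- and 6-day IAA and the 4-day CDKi groups had fractional estimates for 5638 to 8004 genes, the other 22 for 10969 to 12208. The MAVS-/- clones were thus set against libraries with fewer fractional estimates, and where this difference comes from was not tested. In bulk RNA, more cells expressing a gene and more RNA per cell cannot be told apart.

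SAMD9 rose with Ku80 degradation, stepwise until day 4. It stood at 17.8, 21.1 and 16.7 CPM in the 2-day DMSO libraries of clones 1, 7 and 9, at 94.1, 58.9 and 60.0 CPM after 2 days of IAA, at 233, 242 and 205 CPM after 4 days and at 344, 198 and 272 CPM after 6 days. Every IAA library lay above every DMSO library, while the 4- and 6-day groups overlapped. The log2 change against 2-day DMSO was 1.93 ± 0.22 (SE) at 2 days, 3.61 ± 0.23 at 4 days and 3.87 ± 0.23 at 6 days, or 12.2-fold and 14.6-fold at the later times (edgeR adjusted p = 7.91e-07, 1.05e-11 and 1.97e-12). The step between 2 and 4 days was 1.67 ± 0.21 (edgeR adjusted p = 9.16e-06), whereas 6 against 4 days gave 0.26 (edgeR adjusted p = 0.423). The 2-day DMSO group is the control at all 3 times, so time in culture differs at 4 and 6 days.

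At 1 day SAMD9 already stood higher in both clones, at 24.2 and 22.0 CPM with IAA and 10.0 and 11.7 CPM with DMSO. The groups did not overlap, but the log2 change of 1.09 ± 0.28 missed the threshold in the fit without clones (edgeR adjusted p = 0.113) and passed it with the clone as a replicate block (1.08, edgeR adjusted p = 0.034). No member was called at this time, where 0.185% of 18877 genes were called. At an unadjusted p under 0.05 there were 2, SAMD9 and SLFN5, but the share of all genes under that threshold was not computed. DESeq2 called 1, SAMD9, where it called 1.42% of all genes. All 4 libraries are among the 8 that stand apart, so no value without them exists.

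**Figure D1:**
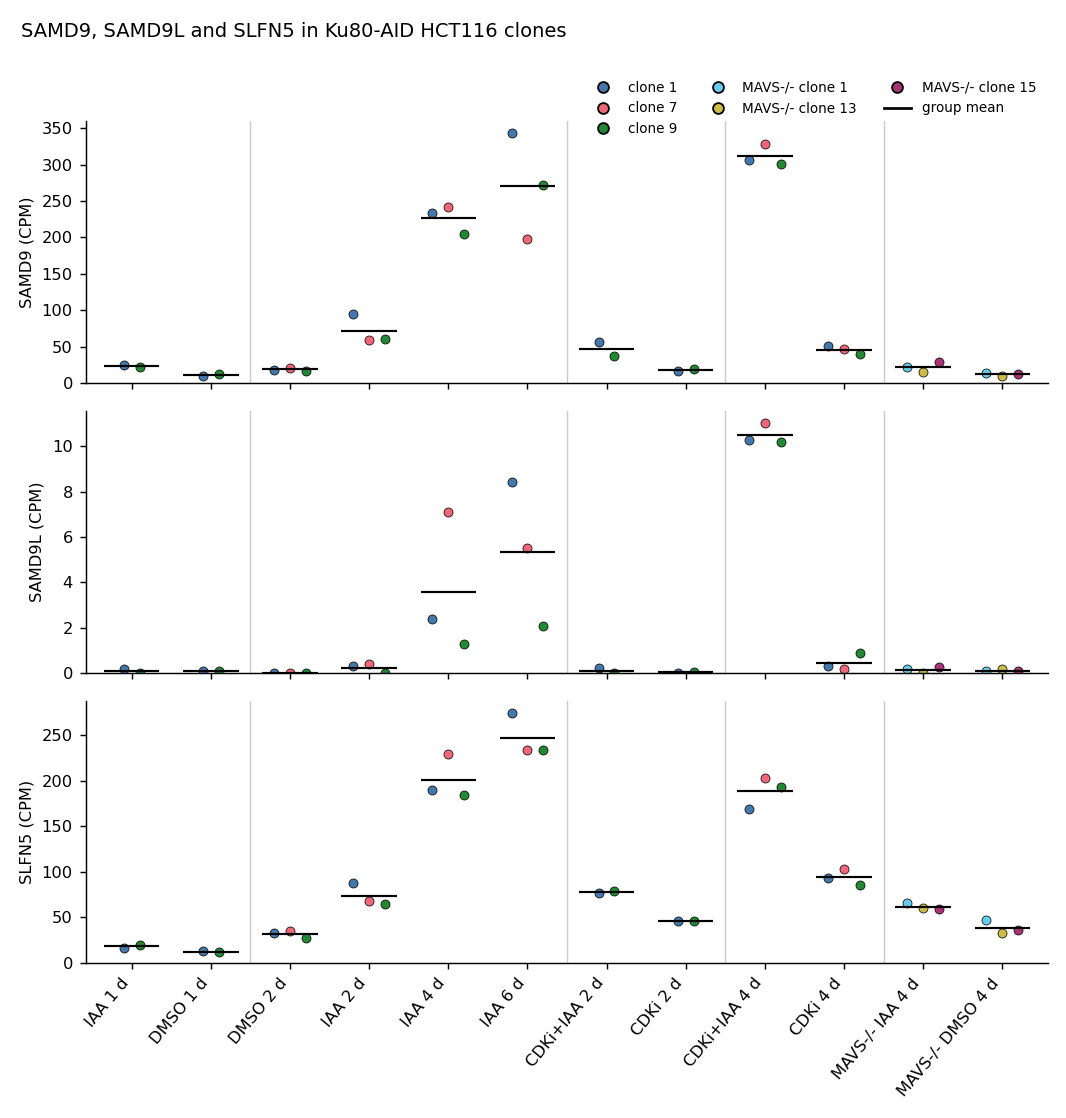
Levels of SAMD9, SAMD9L and SLFN5 (vertical axes, CPM) in the 12 groups of Ku80-AID HCT116 clones (horizontal axis), with a point per library coloured by clone and a line at the group mean. SAMD9 and SLFN5 stand above their control group in every IAA library, SAMD9L is below 1 CPM outside the groups with 4 or 6 days of IAA and intact MAVS, and the MAVS-/- clones stay at 14.4 to 28.3 CPM of SAMD9 under IAA.

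SAMD9L, which shares 2 of its 7255 31-base words with SAMD9 transcripts, was at or near 0 in the controls and clearly present only at 4 and 6 days. At 1 day it had 1 and 1 counts with DMSO and 3 and 0 with IAA in clones 1 and 9, near the detection limit. It had 0 counts in all 3 DMSO libraries of day 2, then 5, 6 and 0 counts after 2 days of IAA in clones 1, 7 and 9. After 4 days it had 52, 118 and 16 counts, and after 6 days 380, 123 and 66 counts (2.36, 7.10 and 1.26 CPM, then 8.41, 5.53 and 2.08 CPM). Every library of days 4 and 6 lay above every control, and clone 9 was lowest at both times. Set against a floor of 3 counts over the control group, SAMD9L was at least 2.93-fold higher at 2 days (edgeR adjusted p = 0.0765), at least 41.5-fold higher at 4 days (3.72e-05) and at least 65.7-fold higher at 6 days (1.21e-05). Leaving out a library moved these bounds, in part because fewer control counts raise the floor. The bound at 4 days was 22.4-fold without clone 7 under IAA and 24.8-fold without clone 7 under DMSO, the bound at 6 days 40.1-fold without clone 1 under IAA and 39.3-fold without clone 7 under DMSO, and the bound at 2 days 1.75-fold without clone 7 under DMSO. The 2-day change passed with DESeq2 (adjusted p = 0.0291), without the count filter and without clone 9 under IAA. SAMD9L rose between 2 and 4 days (log2 change 3.82 ± 0.84, edgeR adjusted p = 0.00565), a call lost with limma on log2(TPM + 1) and with only the compared groups fitted (adjusted p at most 0.0663), and the change was 2.86 without clone 7 under 4 days of IAA. The change from 4 to 6 days did not pass (0.58, edgeR adjusted p = 0.621).

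SLFN5 followed the same course from a higher start. It stood at 32.8, 34.9 and 27.7 CPM in 2-day DMSO libraries of clones 1, 7 and 9, at 87.5, 67.9 and 65.1 CPM after 2 days of IAA, at 190, 229 and 184 CPM after 4 days and at 274, 234 and 234 CPM after 6 days. No IAA library overlapped the controls, and the 4-day group lay below the 6-day group. The log2 changes against DMSO were 1.21 ± 0.14, 2.66 ± 0.14 and 2.96 ± 0.14, the last 2 being 6.31-fold and 7.76-fold (edgeR adjusted p = 6.37e-07, 2.15e-13 and 1.6e-14). SLFN5 rose by 1.45 ± 0.13 between 2 and 4 days (edgeR adjusted p = 4.26e-08) and by 0.30 ± 0.13 between 4 and 6 days, which did not pass (adjusted p = 0.122). At 1 day it stood at 16.2 and 20.1 CPM with IAA and 12.7 and 12.04 CPM with DMSO (log2 change 0.55 ± 0.18, edgeR adjusted p = 0.276).

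Of the 4 members tested in the degron clones, 2 were called higher at 2 days, where 9.12% of all genes tested were called higher, 3 at 4 days (17.9%) and 3 at 6 days (17.8%). None was called lower. Between 4 and 2 days 3 were called higher, against 4.73% of all genes. Between 6 and 4 days none was called, where 12.5% of genes were called in either direction. There 1 member (SLFN5) had an unadjusted p under 0.05, a threshold at which the share of all genes was not computed. DESeq2 called 0 members and 15.1% of all genes. Limma called 1 member, and 8.6% of all genes on log2(TPM + 1) and 8.67% on log2(TPM + 0.1). SLFN12 and SLFN13 were not tested because they lacked counts, and SLFN11 was tested only through the 8 libraries that stand apart.

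Levels without IAA were higher after 4 days of the CDK4/6 inhibitor, which holds cells before DNA replication, than after 2 days of DMSO. Without IAA, SAMD9 stood at 50.5, 47.3 and 39.5 CPM after 4 days of CDKi in clones 1, 7 and 9, and SLFN5 at 93.1, 103 and 86.0 CPM, each library above the 2-day DMSO values given for it. The log2 change of CDKi against DMSO was 1.30 ± 0.22 for SAMD9 and 1.56 ± 0.14 for SLFN5 (edgeR adjusted p = 0.000463 and 6.87e-08). SAMD9L had 25 counts in 3 CDKi libraries and 0 in DMSO, at least 5.05-fold higher (edgeR adjusted p = 0.0421), a call lost with limma on TPM and when any DMSO library or the CDKi library of clone 1 or 9 was left out (adjusted p at most 0.153 over libraries left out). The bound was 2.69-fold without CDKi clone 9 and 3.02-fold without DMSO clone 7. In this comparison 3 of 4 members were called higher, against 3.85% of genes, and times in culture differed between the arms.

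With IAA added to the inhibitor for 4 days, SAMD9 stood at 306, 329 and 301 CPM, with 50.5, 47.3 and 39.5 CPM on the inhibitor alone. SAMD9L stood at 10.3, 11.02 and 10.2 CPM with IAA and at 0.293, 0.188 and 0.872 CPM without. SLFN5 stood at 168, 203 and 193 CPM with IAA and at 93.1, 103 and 86.0 CPM without. None of the 3 overlapped between the arms, and how many of all genes did not overlap was not counted. SAMD9 rose by 2.77 ± 0.22 on the log2 scale, SAMD9L by 4.53 ± 0.80 (23.1-fold) and SLFN5 by 1.00 ± 0.13 (2.00-fold), with edgeR adjusted p = 1.21e-09, 0.000437 and 7.49e-06, so 3 of 4 members were called higher where 6.13% of genes were. Without the CDKi library of clone 9 the change of SAMD9L was 5.40. SAMD9L was higher and more even across clones than with IAA alone, at 10.3, 11.02 and 10.2 CPM against 2.36, 7.10 and 1.26 CPM, but the log2 difference of 1.55 ± 0.68 did not pass (edgeR adjusted p = 0.135), nor did SAMD9 (0.46 ± 0.20, 0.134) or SLFN5 (-0.10 ± 0.13, 0.686). That comparison was added after the data were seen, and 13.2% of genes were called in it. At an unadjusted p under 0.05 there were 2 members, but the share of all genes under that threshold was not computed. DESeq2 called 0 members and 17.9% of all genes. Limma called 1 member, and 12.2% of all genes on log2(TPM + 1) and 12.1% on log2(TPM + 0.1).

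The IAA response of SLFN5 was smaller on the inhibitor than off it, by 1.66 ± 0.19 log2 units (log2 difference -1.66, edgeR adjusted p = 1.8e-05, 2.5% of genes called lower). SLFN5 ended at like levels, and started higher, with the inhibitor. The control was 2-day DMSO off the inhibitor and 4-day CDKi on it. Time in culture therefore enters only 1 of the 2 responses and cannot be told apart from the inhibitor. For SAMD9 the difference of responses was -0.84 ± 0.30, which did not pass without clones (edgeR adjusted p = 0.106) and passed by little with the clone as a replicate block (-0.83, adjusted p = 0.0493). For SAMD9L no difference was called (adjusted p = 0.264), and its control at 0 counts leaves the size undefined. After 2 days, SAMD9 stood at 55.9 and 36.9 CPM with CDKi and IAA and at 16.7 and 19.7 CPM with CDKi, and SLFN5 at 76.7 and 79.0 CPM with CDKi and IAA and at 46.3 and 46.4 CPM with CDKi. Both were called (1.35 ± 0.27 and 0.75 ± 0.16, edgeR adjusted p = 0.0199 and 0.0327) where 0.297% of genes were called higher, but with 2 libraries an arm leaving out a library removed SLFN5 in each of 4 cases and SAMD9 in 3.

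Without MAVS, both genes kept a small response. SAMD9 stood at 21.6, 14.4 and 28.3 CPM after 4 days of IAA in MAVS-/- clones 1, 13 and 15, and at 13.5, 9.77 and 12.6 CPM with DMSO. SLFN5 stood at 65.9, 60.0 and 58.8 CPM with IAA and at 46.6, 33.2 and 36.5 CPM with DMSO. The IAA value was the higher in each clone and the groups did not overlap. The log2 change was 0.84 ± 0.23 for SAMD9 and 0.67 ± 0.13 for SLFN5 (edgeR adjusted p = 0.0201 and 0.00213), 2 of 4 members being called higher where 4.73% of genes were. The call of SAMD9 was lost in 3 of 6 fits that left out a library, with 0.61 without clone 15 under IAA (adjusted p at most 0.15), and with only the compared groups fitted. SAMD9L had 3, 0 and 4 counts with IAA and 1, 2 and 1 with DMSO in these clones (edgeR adjusted p = 0.894).

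The 4-day response was smaller in MAVS-/- clones than in clones with MAVS. The log2 difference of the responses was -2.77 ± 0.31 for SAMD9 and -1.99 ± 0.19 for SLFN5 (edgeR adjusted p = 2.76e-06 and 1.55e-07). SAMD9L passed narrowly (adjusted p = 0.0409), and this was lost in 9 of 12 fits that left out a library, with limma on log2(TPM + 1), and with only the compared groups fitted. Thus 3 of 4 members were called lower, against 2.39% of genes. The DMSO arms differ in time, at 4 days for MAVS-/- clones and 2 days for the others, and 46.1% of genes were called between them, SAMD9 among them (-0.63 ± 0.23, edgeR adjusted p = 0.027) and SLFN5 not (0.29, 0.0874). That call of SAMD9 was lost with limma on TPM and without DMSO clone 7 or MAVS-/- clone 13 (adjusted p at most 0.129). Clone, time and whatever lies behind the differing number of fractional estimates cannot be told apart from MAVS in this contrast.

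**Figure D2:**
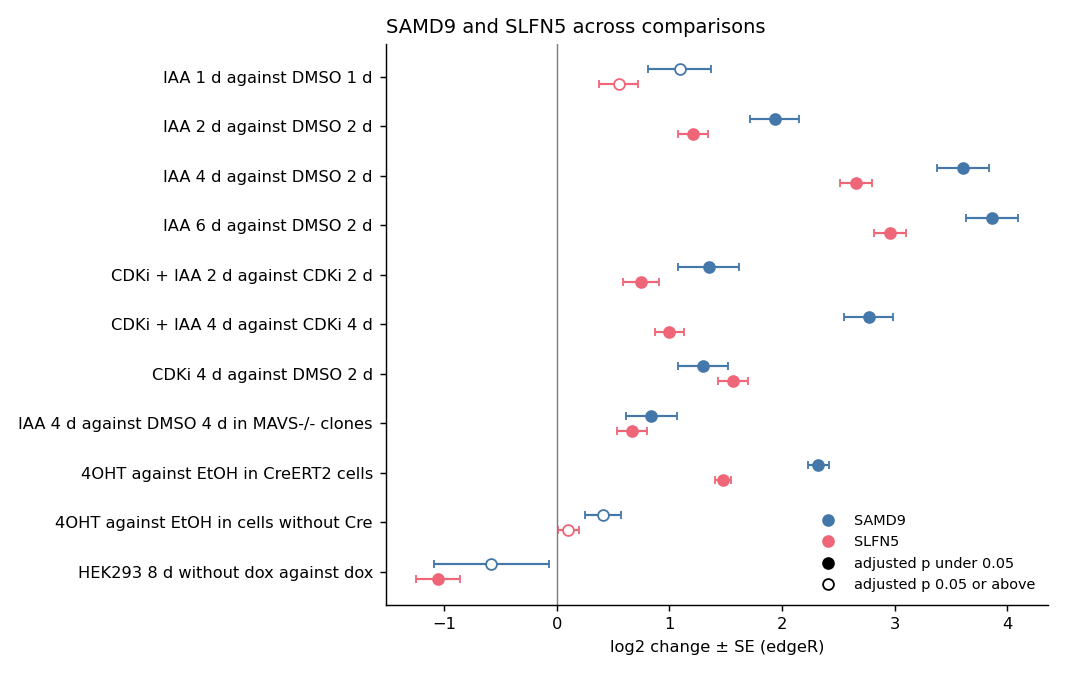
Log2 changes (horizontal axis, edgeR, bars are ± SE) of SAMD9 and SLFN5 in 11 comparisons (vertical axis), filled where the adjusted p is under 0.05. Both changes are largest after 6 days of IAA (3.87 for SAMD9 and 2.96 for SLFN5), small in MAVS-/- clones (0.84 and 0.67), and below 0 in HEK293 (-0.58 and -1.06).

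With 4OHT in CreERT2 cells, where Cre deletes XRCC5, the direction was the same, and no IAA or dox was given. Active Cre and the loss of XRCC5 came together, and no group separates them. In CreERT2 cells SAMD9 stood at 107 and 103 CPM with 4OHT and at 18.5 and 23.6 CPM with ethanol, a log2 change of 2.32 ± 0.092 or 5.01-fold (edgeR adjusted p = 2.76e-10). SLFN5 stood at 120.0 and 120.2 CPM with 4OHT and at 42.2 and 44.1 CPM with ethanol, a change of 1.48 ± 0.074 or 2.78-fold (adjusted p = 2.53e-09). SAMD9L had 23 and 12 counts with 4OHT and 1 and 3 with ethanol (3.37 ± 0.73, edgeR adjusted p = 0.00157, with 2.76 and 4.31 when ethanol replicate 1 or 2 was left out). No 4OHT library overlapped the ethanol libraries for these genes, and all 3 members tested were called higher, but so were 26.4% of 16726 genes. Whether replicates 1 and 2 were grown apart is not in the labels, so the spread behind these p-values may be technical.

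Cells without Cre tested 4OHT by itself. SAMD9 stood at 8.05 and 8.15 CPM with 4OHT and at 6.52 and 5.54 CPM with ethanol, and SLFN5 at 28.3 and 23.8 CPM with 4OHT and at 23.6 and 25.2 CPM with ethanol. Neither passed (0.41 ± 0.16 and 0.10 ± 0.091, edgeR adjusted p = 0.104 and 0.49), and none of the 3 members was called where 13.7% of genes were. At an unadjusted p under 0.05 there was 1, SAMD9, but the share of all genes under that threshold was not computed. DESeq2 called 0 members and 11.2% of all genes. The 4OHT response was larger with CreERT2 by 1.91 ± 0.19 for SAMD9 and 1.37 ± 0.12 for SLFN5 (edgeR adjusted p = 3.59e-06 and 9.42e-07), 2 of 3 members against 18.8% of genes called higher. Already in ethanol the CreERT2 line stood above the line without Cre, by 1.78 ± 0.13 for SAMD9 and 0.83 ± 0.085 for SLFN5 (adjusted p = 1.21e-06 and 1.87e-05), a comparison of 2 lines added after the data were seen in which 12.4% of genes were called higher.

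**Figure D3:**
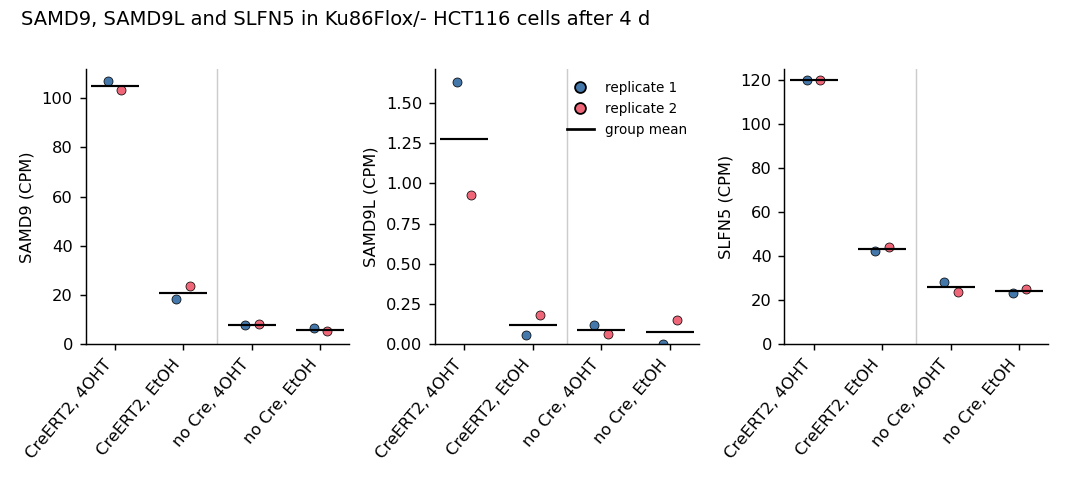
Levels (CPM, vertical axes) of SAMD9, SAMD9L and SLFN5 in Ku86Flox/- HCT116 cells with or without CreERT2 after 4 days of 4OHT or ethanol, with a point per library and a line at the group mean. The 2 libraries of 4OHT-treated CreERT2 cells stand highest for each gene, at 103 to 107 CPM for SAMD9, and the ethanol libraries of that line stand above both groups without Cre for SAMD9 and SLFN5.

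In HEK293 clones 8 days after dox withdrawal none of the 6 genes was called higher. XRCC6 RNA was lowered but remained at 338 to 605 CPM. Dox and ectopic Ku70 were withdrawn together, and no arm separates them. SLFN5 stood at 12.04, 19.3 and 12.4 CPM in clones Sa11, SB and TI after 8 days without dox, and at 32.1, 29.2 and 29.9 CPM with dox. All 3 clones were lower without dox and the groups did not overlap (log2 change -1.06 ± 0.20, edgeR adjusted p = 0.00684). SAMD9 stood at 6.38, 18.8 and 7.38 CPM without dox and at 11.2, 28.9 and 8.52 CPM with dox, lower in each clone although the groups overlapped, with clone SB high in both arms. Its log2 change of -0.58 ± 0.51 did not pass (edgeR adjusted p = 0.457), passed with the clone as a replicate block (-0.55, adjusted p = 0.0345), and turned to 0.13 when the dox library of clone SB was left out of the fit without a block. SAMD9L had 10, 19 and 11 counts without dox and 9, 22 and 16 with dox (0.03 ± 0.49).

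SLFN11 was the most abundant Schlafen transcript in HEK293, at 173, 156 and 169 CPM without dox and 234, 182 and 249 CPM with dox in clones Sa11, SB and TI (92.4 to 109 TPM and 115 to 145 TPM). It was lower without dox in all 3 clones and the groups did not overlap. The log2 change of -0.42 ± 0.14 missed the threshold (edgeR adjusted p = 0.0609) and passed with the clone as a replicate block (-0.41, adjusted p = 0.0109). SLFN12 stood at 5.08, 5.59 and 6.61 CPM without dox and 5.07, 4.65 and 7.39 CPM with dox (0.01 ± 0.27). SLFN13 stood at 3.23, 3.32 and 3.01 CPM without dox and 4.02, 3.85 and 5.73 CPM with dox, not overlapping, and did not pass (-0.51 ± 0.28, edgeR adjusted p = 0.222). Of the 6 members 1 was called, lower, where 10.9% of genes were called lower. With the clone as a replicate block 3 were called, where 34.8% of genes were called in either direction, against 22% without it. SLFN11 shares 14% of its 31-base transcript words with SLFN13, so part of the weaker gene's counts may be uncertain.

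**Figure D4:**
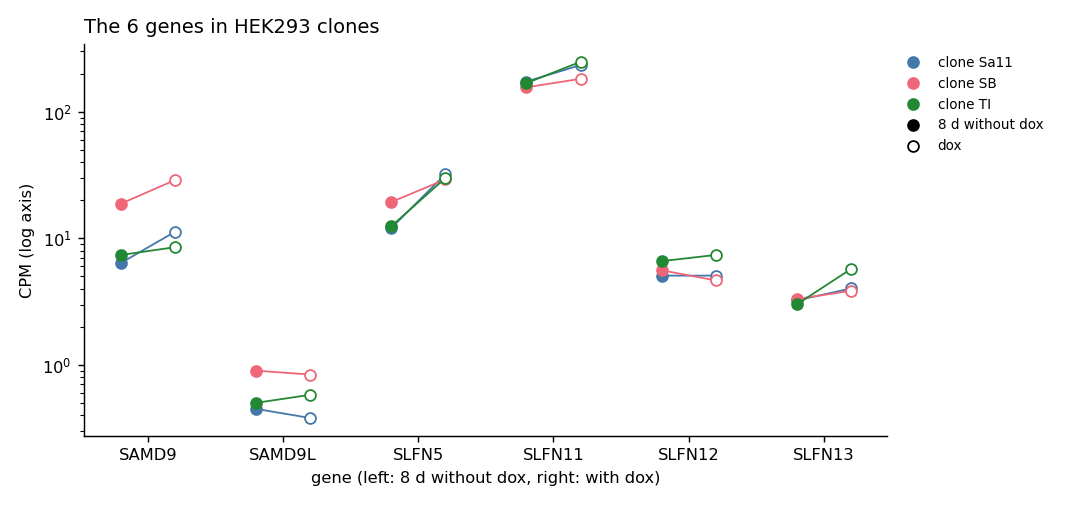
Levels (CPM, log axis) of the 6 genes in HEK293 clones Sa11, SB and TI, with filled points for 8 days without dox at the left of each gene and open points for dox at the right, joined by clone. SLFN5 and SLFN11 are lower without dox in all 3 clones, SLFN11 being above 150 CPM in every library, and clone SB carries the most SAMD9 in both arms.

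In HCT116 the cluster neighbours of SLFN5 were close to silent. Among the 32 HCT116 libraries outside the set that stands apart, SLFN11 had 2 counts in all, SLFN12 2 counts and SLFN13 1 count, each in a single library, over 533 M counts, in which a count of 0 allows up to 0.00563 CPM. None of the 3 was detectable in any of the 3 libraries with 6 days of IAA, while SLFN5 reached 234 to 274 CPM there.

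In the 8 libraries of the 1-day and 2-day CDKi groups SLFN11 had 141 to 173 counts (8.54 to 11.9 CPM), SLFN12 0 to 4 and SLFN13 0 to 4. After 1 day SLFN11 stood at 8.54 to 8.78 CPM with IAA and 10.6 to 10.7 CPM with DMSO, without overlap, but the log2 change of -0.30 ± 0.42 did not pass (edgeR adjusted p = 1). With CDKi for 2 days it stood at 9.91 to 10.2 CPM with IAA and 9.94 to 11.9 CPM without, which overlapped. SLFN12 at 1 day did not overlap either, at 0.226 to 0.242 CPM with IAA and 0.0643 to 0.0762 CPM with DMSO. This rests on 4 counts in each IAA library and 1 in each DMSO library, too few to be tested. The 16 other genes of that pattern include UCHL1 with 187 to 284 counts, and all have counts in HEK293. The share of all genes with counts in HEK293 was not computed. Their mean CPM in the 8 libraries was 2.21% to 38.0% of the HEK293 median, with a median of 3.81% over the 17 genes and 5.56% for SLFN11. The summed HEK293 markers were 27.8 to 34.0 TPM in the 8 libraries, 2.12 to 16.8 TPM in the other 32 and 558 to 732 TPM in HEK293. Most of the sum in HEK293 was VIM (482 to 647 TPM). Not every listed marker was higher in HEK293: PAX2 had a median of 2.47 TPM in HCT116 and 0.714 TPM in HEK293. No gene showed the reverse pattern. Why these libraries hold SLFN11 was not tested.

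**Figure D5:**
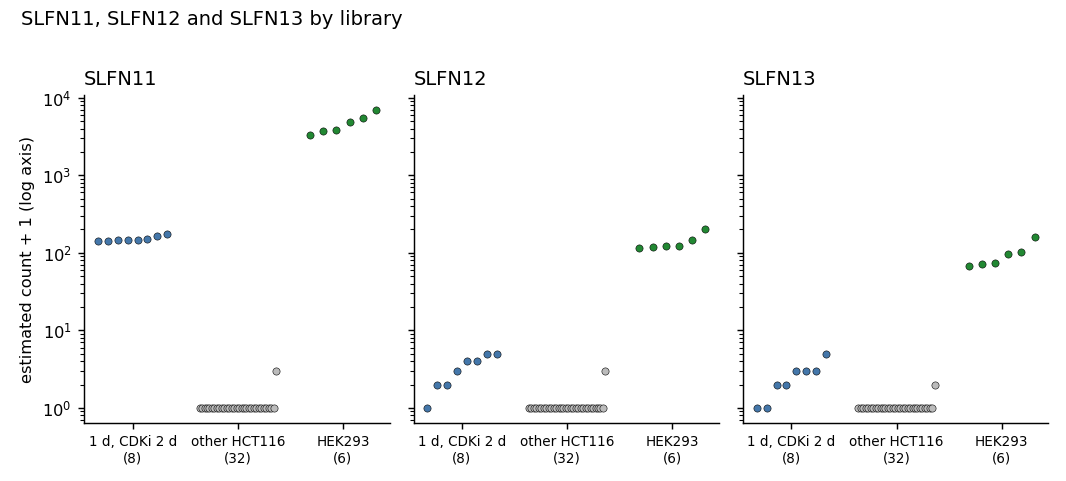
Estimated counts plus 1 (log axis) of SLFN11, SLFN12 and SLFN13 in the 8 HCT116 libraries of the 1-day and 2-day CDKi groups, the other 32 HCT116 libraries and the 6 HEK293 libraries, with a point per library in order of value. SLFN11 has 141 to 173 counts in the 8 libraries, at most 2 in the other 32, and 3295 to 6858 in HEK293.

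Between genes, levels per length put SLFN5 above SAMD9 in the 2-day DMSO libraries and below it after 4 days of IAA, while in 4OHT-treated CreERT2 cells and MAVS-/- clones SLFN5 stayed above. The ratio of SAMD9 to SLFN5 in TPM was 1.36 to 1.51 after 4 days of IAA and 0.607 to 0.738 in 2-day DMSO libraries, without overlap. It was 1.66 to 1.91 with CDKi and IAA for 4 days and 0.501 to 0.585 with CDKi alone, 0.911 to 0.957 with 4OHT and 0.515 to 0.641 with ethanol in CreERT2 cells, and 0.265 to 0.573 with IAA and 0.362 to 0.463 with DMSO in MAVS-/- clones, where the groups overlapped. SAMD9L stayed far below SAMD9 throughout, with a TPM ratio of SAMD9 to SAMD9L between 27.2 and 173 at 4 days of IAA and between 28.0 and 28.4 with CDKi and IAA for 4 days. The ratio was 14.8 to 151 at 6 days of IAA. In HEK293 it was 15.4 to 21.7 without dox and 16.2 to 35.9 with dox.

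Over the 12 group means of the degron clones, log2 levels of SAMD9 and SAMD9L correlated at r = 0.922, of SAMD9 and SLFN5 at 0.897, and of SAMD9L and SLFN5 at 0.818, as descriptions of groups that share libraries, depth and clones. The genes closest to SAMD9 included SP110 (r = 0.992) and SP100 (0.985), and those closest to SAMD9L were IFI44L (0.983), XAF1 (0.979) and OAS3 (0.977), and to SLFN5 they were CHMP1B (0.976), CDH1 (0.975) and SAMD12 (0.974). Those closest to SLFN11 were BEX1, UCHL1 and ZNF382, a pattern set by the 8 libraries that stand apart.

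The other genes of the pathway moved at the same times. Of 35 other interferon-stimulated genes, 15 were called higher and 0 lower after 2 days of IAA, 34 and 0 after 4 days and 34 and 0 after 6 days. Over all genes, 9.12%, 17.9% and 17.8% were called higher. The median log2 change of the 35 was 2.55 at 4 days, against 0.04 over all genes, and 3.43 at 6 days, XAF1, IFI44L and OAS1 changing most at 4 days. Of these, IFI6 rose by 5.92 ± 0.28 (edgeR adjusted p = 5.99e-14) and BST2 by 5.14 ± 0.61 (2.33e-07). In CDKi-treated cells 33 rose with 4 days of IAA, and in CreERT2 cells 34 rose with 4OHT, where 6.13% and 26.4% of all genes did. Against 2-day DMSO, 14 were also higher with 4 days of CDKi alone, and 9 rose with 4OHT without Cre (3.85% and 7.26% of all genes). In ethanol, 31 were higher in the CreERT2 line than in the line without Cre (12.4% of all genes). In MAVS-/- clones 4 rose with IAA (RIGI, PARP12, DTX3L and PARP9, an RNA sensor and ubiquitin or ADP-ribose enzymes) and HERC5 fell, where 4.73% of all genes rose. The response of 29 was smaller than with MAVS, a call made for 2.39% of all genes. In HEK293 without dox, 2 of 33 tested rose and 6 fell, where 11.1% of all genes were called higher and 10.9% lower, with log2 changes of 0.99 ± 0.19 for RIGI and -1.89 ± 0.29 for BST2 (edgeR adjusted p = 0.00786 and 0.00325).

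Of 13 interferon signalling factors, 9 were called higher and 1 lower after 4 days of IAA, where 17.9% of all genes were called higher and 14.9% lower. IRF7, a factor that drives interferon genes, rose by 3.31 ± 0.33, the brake USP18 by 2.50 ± 0.17 and IRF9, a transcription factor of the interferon response, by 2.11 ± 0.24 (edgeR adjusted p = 1.43e-08, 3.24e-11 and 1.44e-07), while the receptor chain IFNAR2 fell by 0.42 (0.0324). Of 17 partners and genes of shared function, 1 rose and 11 fell at 4 days (median -0.72), where 14.9% of all genes were called lower, among them the replication proteins MCM3 (-1.63 ± 0.15), RPA3 (-1.42 ± 0.18) and CDT1 (-1.26 ± 0.21), with edgeR adjusted p = 2.8e-09, 8.9e-07 and 3.99e-05. Of 3 other Schlafen genes, SLFN12L had 0 counts in all 40 HCT116 libraries and SLFNL1 alone was tested there, without a call under IAA, and in HEK293 neither of the 2 tested was called.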

How the data were processed

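RNA from cultured HCT116 cells (poly-A enriched) and HEK293 cells (ribosome-depleted) was sequenced, per the labels' protocols. The authors deposited estimated counts per gene, which were not normalized here before use, and TPM per gene, scaled by the authors to transcript length and library total. The submitters' processing notes list Salmon 1.10.2, kallisto 0.50.0, DESeq2 and GRCh38 but give them no roles, and the gene annotation and strandedness were not given in the sources used here. All sample columns were matched by name, with 0 unmatched.

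Estimated counts were rounded to whole numbers and compared by the quasi-likelihood test of edgeR 4.0.16 under R 4.3.3, after filterByExpr on the groups and TMM scaling, with Benjamini-Hochberg adjustment over every gene tested and a threshold of 0.05. Fits covered 32 Ku80-AID libraries (18877 genes in 12 groups, 20 residual degrees of freedom), 8 Ku86Flox/- libraries (16726 genes in 4 groups, 4 degrees of freedom) and 6 HEK293 libraries (15549 genes, 4 degrees of freedom), each sharing its estimate of spread over groups. CPM values are TMM-scaled, and a standard error is the size of the log2 change over the root of its quasi-F value. The test was checked on simulated counts. Where a whole group had 0 counts, a floor of 3 counts for that group was used. Floors cover counting error only, since reads carried no molecular identifiers. Depth per library is given with the results, and replicate libraries differed by more than sampling noise (chi-square per degree of freedom at least 1.98).

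Each clone of the degron, MAVS-/- and HEK293 lines served both arms of its comparison, so the clone pairs libraries. Correlations of same-clone deviations were 0.0236 to 0.0666 for 4 days of IAA, 0.0621 to 0.273 in MAVS-/- clones and 0.245 to 0.467 in HEK293. Replicate numbers of the Ku86Flox/- cells are only numbers. The 6 members were named throughout, with the 3 genes of most alike pattern for each member tested in the degron clones (Pearson r over group means of log2 CPM, prior count 2) and up to 6 genes a list, in list order or by size of change at 4 days of IAA. Members, lists and comparisons were chosen with earlier results of these data known. Alternatives were limma 3.58.1 on log2(TPM + 1) and log2(TPM + 0.1), DESeq2 1.42.0, RLE factors, omission of the count filter, a fit of only the compared groups, a replicate block (clone or number), each library left out, and, added after the data were seen, a fit without the 8 libraries that stand apart. A gene among those named by these rules is not reported here. Protein sequences were not analysed here.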

Additional observations from a re-analysis of the deposited data

Results flagged for a closer look

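The following results concern responses that differed between settings by a test of the difference itself, unless said otherwise. The IAA response of SLFN5 at 4 days differed with the CDK4/6 inhibitor (log2 difference of responses -1.66), with a 2-day control off the inhibitor and a 4-day control on it. The IAA response at 4 days differed in MAVS-/- clones for SAMD9 (-2.77), SLFN5 (-1.99) and SAMD9L (-8.34, a fitted value that depends on the prior count because its DMSO group had 0 counts). The 4OHT response differed with CreERT2 for SAMD9 (1.91) and SLFN5 (1.37). Between 4 and 2 days of IAA the response differed for SAMD9 (1.67), SAMD9L (3.82) and SLFN5 (1.45). In HEK293, all 3 clones moved the opposite way to the degron clones for SAMD9 (log2 change -0.58 without dox, against 3.61 after 4 days of IAA) and SLFN5 (-1.06 against 2.66). That last difference was not tested, since the lines were sequenced and fitted separately and differ in subunit, library type and duration.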

How the results depend on the processing

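Under every alternative and every library left out, 3 members stayed called at 4 and 6 days of IAA and at 4 days between CDKi with and without IAA. With 4OHT in CreERT2 cells 3 stayed called under every alternative. The count ran from 2 to 3 at 2 days of IAA (2 in the main fit) and for the MAVS-/- change (3). Of all genes, the alternatives called 15.9% to 34% and 18.1% to 36.8% at 4 and 6 days of IAA. They called 5.64% to 17.7% between CDKi with and without IAA, and 26.9% to 60.2% in CreERT2 cells. At 2 days of IAA they called 9.04% to 36.6%, and for the MAVS-/- change 2.06% to 9.66%. With limma on log2(TPM + 1) and log2(TPM + 0.1), the count was 0 and 1 for CDKi + IAA against CDKi at 2 days (2 with edgeR), 1 and 1 for CDKi + IAA against IAA at 4 days (0), 1 and 1 for 6 against 4 days (0), and 0 and 0 for MAVS-/- DMSO against 2-day DMSO (1). The shares of all genes called there were, in order, 0.201% and 0.159%, 12.2% and 12.1%, 8.6% and 8.67%, and 37.5% and 37%. Without a count filter the count of members was 2 for CDKi + IAA against IAA, 2 for the CDKi change of the response (1) and 1 at 1 day (0). Of all genes, 6.92%, 3.33% and 0.333% were called there. With only the compared groups the count of members was 2 for the CDKi change, 2 at 1 day and 1 in MAVS-/- clones (2). Of all genes, 2.79%, 9.99% and 4.91% were called there. DESeq2 called 2 in HEK293 (1) and 1 at 1 day, where it called 27.3% and 1.42% of genes. In these cases the cause was not tested.

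With the clone as a replicate block, the pairing that shared clones give, the count was 2 for the CDKi change, 3 in HEK293 and 1 at 1 day, and the block changed no other count of calls. Of all genes, the block fits called 6.28%, 34.8% and 0.567% in these 3 comparisons. The replicate number of the Ku86Flox/- cells left the counts at 3 with CreERT2, 0 without Cre and 2 for the CreERT2 change. Of all genes, these fits called 53.6%, 13.4% and 40.7% in either direction.

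Leaving out each library gave 0 to 1 calls for CDKi + IAA against CDKi at 2 days, 0 to 1 for CDKi + IAA against IAA (1 without clone 7 under IAA), 1 to 2 in HEK293 (2 without the dox library of clone SB), 1 to 2 in MAVS-/- clones (1 without the DMSO library of clone 13 or 15 or the IAA library of clone 15) and 0 to 1 for MAVS-/- DMSO against 2-day DMSO (0 without clone 7 of DMSO). The share of all genes called in each of these fits is not given here, so the counts cannot be set against it. Where an arm kept a lone library, it was assumed to vary like the other groups. Signs of changes that passed no threshold turned in some fits: with a library left out, SAMD9 in HEK293 ran from -1.20 to 0.13, SLFN12 from -0.12 to 0.25 and SAMD9L from -0.31 to 0.34. SAMD9L ran from -0.68 to 3.67 with 4OHT without Cre, from -2.40 to 3.88 for CDKi + IAA at 2 days, from -0.31 to 4.05 for the CreERT2 change, from -0.38 to 3.98 between the Cre lines and from -3.32 to 1.18 at 1 day. SLFN11 ran from -0.23 to 0.044 for CDKi + IAA at 2 days, SLFN5 from -0.043 to 0.22 with 4OHT without Cre and from -0.16 to 0.0087 for CDKi + IAA against IAA. With limma on log2(TPM + 0.1) and log2(TPM + 1), SAMD9L turned to 0.80 and 0.92 for the CDKi change, SLFN12 to -0.067 and -0.055 in HEK293, and SLFN5 to -0.038 and -0.035 with 4OHT without Cre and to 0.26 and 0.25 for CDKi + IAA against IAA. Without the 8 libraries that stand apart, all counts that could be computed were the same. SAMD9L rests on few counts, and SLFN12 and SLFN13 have too few counts in HCT116 to be tested. The SAMD9L bounds without each library were added after the data were seen.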
